A study of Rattus norvegicus with 8 samples.

Results

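The 10 genes described here encode enzymes of the antioxidant defence of the cell: the superoxide dismutases Sod1 and Sod2, catalase (Cat), the glutathione peroxidases Gpx1 and Gpx4, both subunits of glutamate-cysteine ligase (Gclc and Gclm), heme oxygenase 1 (Hmox1), the quinone reductase Nqo1 and thioredoxin reductase 1 (Txnrd1). They were chosen by name, and every probe on the array whose gene name is one of the 10 was taken. This gave 15 probes of the 41012 on the array, in 24 spots, because the single Hmox1 probe is printed 10 times. Sod1 and Gpx1 have 2 probes each and Txnrd1 has 4. A gene with several probes is read from a representative, its brightest probe designed to a RefSeq transcript, and its other probes are described beside it.

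RNA came from neurons of the CA3 subfield of the hippocampus, cut from frozen brain sections of Sprague-Dawley rats by laser capture microdissection and hybridized to 8 one-colour Agilent whole-genome rat arrays, 2 in each of 4 groups. Naive rats had no treatment, and sham rats had the surgery without the injury. The other 2 groups came from rats with moderate fluid percussion injury, a model of traumatic brain injury in which a pulse of fluid strikes the dura; these rats were male per the study's methods. In all 4 groups the brain was removed after 24 h. Fluoro-Jade, a dye that stains degenerating neurons, separated dying neurons (positive) from surviving neurons (negative) that lay next to them. Each injured sample pooled about 600 neurons from several rats. The ages of the rats, the size of the naive and sham pools, and which surviving pool shares rats with which dying pool are not given in the sources used here. The p-values below therefore measure the spread between pools, not between single animals.

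Superoxide dismutases turn superoxide into hydrogen peroxide, in the cytosol for Sod1 and in mitochondria for Sod2. Catalase and the glutathione peroxidases remove the peroxide, the latter at the cost of glutathione, whose synthesis starts with glutamate-cysteine ligase. Txnrd1 keeps cytosolic thioredoxin reduced, Hmox1 opens the heme ring and Nqo1 reduces quinones; these and glutamate-cysteine ligase are known targets of the transcription factor Nrf2 (gene Nfe2l2), which Keap1 holds in check and Bach1 opposes. In the brain, neurons rely on astrocytes for glutathione precursors, and Hmox1 is known to be inducible by heme.

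Values are log2 of the background-subtracted signal of a probe over the median signal of its array, so that 0 is the array median. The median signal was 27.2 and 22.7 intensity units in the naive arrays, 16.5 and 16.4 in the sham arrays, 52.2 and 48.2 in the surviving arrays, and 19.2 and 52.6 in the dying arrays. The number of probes well above background, as marked by the scanner software, ran from 20191 in sham replicate 2 to 29345 in surviving replicate 1. The dying replicates were less alike than those of the other groups. Over the 15250 probes that stood well above background throughout, the correlation across probes between the dying replicates was 0.892, against 0.966 for naive, 0.985 for sham and 0.976 for surviving. Dying replicate 2 correlated at 0.934 and 0.941 with the surviving arrays, and dying replicate 1 at 0.816 and 0.842. Genes are not independent replicates, so these values describe the arrays.

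The naive and sham arrays lay on slide 1 and the surviving and dying arrays on slide 2, scanned apart. Injury and slide therefore cannot be told apart in any comparison with sham, whereas surviving against dying and sham against naive are comparisons within a slide. The comparisons with sham also depend on how arrays are scaled. With the array median used here, the median difference over all probes tested was -0.43 for surviving minus sham and -0.46 for dying minus sham. With the 75th percentile it was 0.36 and 0.26, with quantile normalization 0.18 and 0.21, and with the median of RefSeq probes -0.62 and -0.31. Log2 differences from sham are therefore given together with their distance from the all-probe median, called the relative difference below. Where a probe is not well above background on an array of the lower group, the fold between the group means is a lower bound, with that array set to the dimmest signal still well above its background if the probe is dimmer. Bounds against sham are given with the array median only, and they move with the scaling as the differences do. A bound allows for the dim signal only and not for the spread between pools. A fit without 1 array or with another setting can give a smaller fold. The dimmest signal comes from 1 probe of the array, and other probes not well above background can lie above it.

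A probe is called changed when its p-value, adjusted over all probes tested by Benjamini-Hochberg, is under 0.05. In surviving minus dying, of 15 member probes, 11 entered the test, which takes a probe if either group has it well above background on both arrays; limma called 0 of them at an adjusted p under 0.05, and 3 had an unadjusted p under 0.05. Over all 27391 probes tested the share called was 0%, and 21.5% had an unadjusted p under 0.05. Both surviving arrays lay above both dying arrays for 3 member probes and below them for 4, where the shares over all probes were 30.2% and 21.9%. The count depends on which dying pool is kept: limma called probes without dying replicate 2 but none without dying replicate 1. Each of these fits leaves 1 dying pool, so its calls describe that pool and not dying neurons as a group.

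In surviving minus sham, 12 member probes were tested and 0 were called by limma, where 18.9% of all probes were; 2 had an unadjusted p under 0.05, where 36.9% of all probes did. The surviving arrays lay wholly above sham for 4 member probes and wholly below for 7, against 28.1% and 48.9% of all probes. In dying minus sham, 12 were tested and 2 were called, both lower in dying neurons (1 Cat probe and 1 Txnrd1 probe), where 44.1% of all probes were called. Both entered the test through sham alone, and with a filter on all arrays of both groups neither is tested and the 1 member probe called is the Txnrd1 representative. Of the 12, 4 had an unadjusted p under 0.05, against 54.3%. Dying lay wholly above sham for 4 member probes and wholly below for 5, against 31% and 45.6% of all probes. In sham minus naive, 11 were tested and limma called 0, as in 0% of all probes; 1 had an unadjusted p under 0.05, against 4.82%. Of all calls against sham, 36.1% were higher in surviving neurons and 34.2% higher in dying neurons; with the 75th percentile these shares were 73.4% and 59.7%, with quantile normalization 60.3% and 56.2%, with the median of RefSeq probes 25.6% and 39.3%, and from the series table as deposited they were 75.3% and 63.0%.

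The median difference over the representative probes of the 10 genes, including those not well above background, was 0.03 for surviving minus dying, beside 0.14 over all probes tested. Its sign turned with quantile normalization (-0.02), the median of RefSeq probes (-0.32) and the series table as deposited (-0.05), and without surviving replicate 1 (-0.21) or dying replicate 2 (-0.30), and between replicates of these groups the median had an SD of 0.40. Relative to all probes the member median was -0.27 in surviving minus sham and -0.42 in dying minus sham. With quantile normalization these relative medians were -0.08 and -0.16, and that of surviving minus sham turned to 0.30 with normexp background correction and to 0.04 without the filter on dim probes. The relative median of dying minus sham was -0.83 without dying replicate 1 and -0.04 with normexp. In sham minus naive the member median and the all-probe median were both 0.37.

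**Figure D1:**
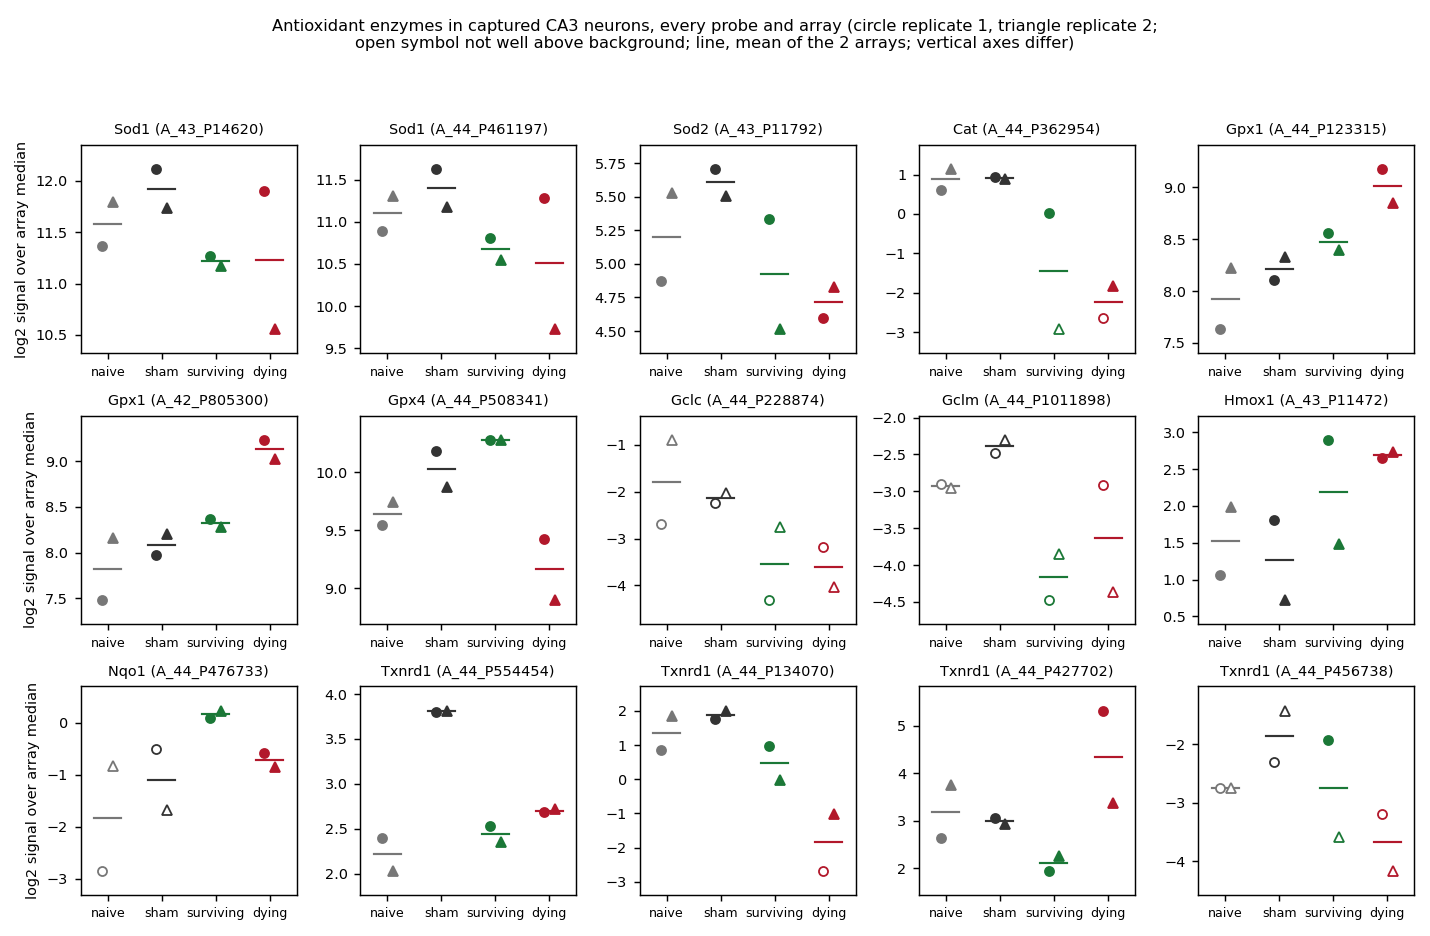
Log2 signal over the array median (vertical axes, different in each panel) for the 15 probes of the 10 antioxidant genes in naive, sham, surviving and dying pools, with a circle for replicate 1, a triangle for replicate 2, an open symbol where the probe was not well above background and a line for the mean of the 2 arrays. Gpx1 lay highest in the dying arrays on both probes, Cat lay between 0.61 and 1.14 in naive and sham arrays and between -2.93 and 0.02 in injured ones, and the Txnrd1 probes did not share a pattern.

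Because several of these genes are known Nrf2 targets, their promoters were searched, from 250 bases before to 50 after the start site, for TGACNNNGC, the core of the antioxidant response element, on both strands. RefSeq promoters of the rat build GRCr8 were found for 9 of the 10 genes, 12 promoters in all; Hmox1 had no entry. Of these 12 promoters 3 held a match, in 3 genes, and of all 33469 rat promoters 12.1% did. The matches are shown with 10 bases on either side, 5′ to 3′ on the strand of the gene, with the match, here read as its reverse complement, in capitals.
Sod2, chr1:50050185-50050213, minus strand: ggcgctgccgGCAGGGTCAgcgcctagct
Gclm, chr2:213031953-213031981, plus strand: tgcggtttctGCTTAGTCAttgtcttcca
Txnrd1, second of its start sites, chr7:22755964-22755992, minus strand: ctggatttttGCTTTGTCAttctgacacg
The matches start at -35, -172 and -78 from the start sites of Sod2, Gclm and Txnrd1. The AP-1 site TGAGTCA was in 0 of the 12 and in 4.63% of all promoters. Of 67 promoters of the genes of the pathway lists described below, 16 held TGACNNNGC and 8 held TGAGTCA. These are letters in a window of sequence, and binding was not measured.

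Sod1, the cytosolic copper-zinc superoxide dismutase, was read at 11.36 and 11.79 in naive pools, 12.11 and 11.73 in sham pools, 11.26 and 11.17 in surviving pools and 11.90 and 10.56 in dying pools. Surviving lay just below sham, and the dying replicates, apart by more than any other pair, spanned every other array but sham replicate 1. The second probe had the same order within each group, from 9.73 in dying replicate 2 to 11.63 in sham replicate 1. Between surviving and dying pools the difference was -0.01 (SE 0.55, adjusted p = 0.994), with a 95% confidence interval from -1.28 to 1.25. Against sham the difference was -0.71 in surviving neurons (adjusted p = 0.373, relative difference -0.28) and -0.69 in dying neurons (adjusted p = 0.315, relative difference -0.23); with the 75th percentile both turned positive, to 0.08 and 0.03.

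Sod2, the mitochondrial manganese enzyme, was read at 4.87 and 5.53 in naive pools, 5.71 and 5.51 in sham pools, 5.33 and 4.51 in surviving pools and 4.59 and 4.83 in dying pools. All 4 injured arrays lay below both sham arrays, while surviving and dying overlapped. The difference of surviving from dying pools was 0.21 (SE 0.49, adjusted p = 0.841) and turned to -0.14 with the median of RefSeq probes. Against sham the difference was -0.69 in surviving (adjusted p = 0.335, relative difference -0.26) and -0.90 in dying neurons (adjusted p = 0.16, relative difference -0.43); with quantile normalization both were positive, 0.33 in each.

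Cat, which breaks down hydrogen peroxide in peroxisomes, was read at 0.61 and 1.14 in naive pools, 0.94 and 0.88 in sham pools, 0.02 and -2.93 in surviving pools and -2.65 and -1.83 in dying pools. It was well above background on all 4 uninjured arrays but on only 1 of 2 surviving and 1 of 2 dying arrays, and every injured array lay below every uninjured one. Cat fell by 3.15 on the log2 scale from sham to dying neurons (SE 0.87, 95% confidence interval -5.15 to -1.15, adjusted p = 0.0217), with a relative difference of -2.69, and was lower in 2 of 2 pools. Because dying replicate 1 was not well above background, the fold is given as a bound for the dim signal, 5.65-fold lower. The confidence interval reaches to a smaller fall than this bound. The direction held in every setting that gave a value, but the call did not: it was made in 8 of 17 settings. The adjusted p was 0.0593 with the 75th percentile, 0.112 without dying replicate 1, 0.104 without sham replicate 1 and 0.0847 without sham replicate 2, and it ranged from 0.013 to 0.528 over the settings. Surviving minus sham was -2.36 (SE 0.88, adjusted p = 0.0952, relative difference -1.94) and was called in 2 of 17 settings. Surviving replicate 2 was not well above background, and the bound for the dim signal was 3.28-fold lower. Without surviving replicate 2 the difference was -0.89, a smaller fall than the bound. The surviving and dying pools were not compared, because neither group had both arrays well above background, and sham minus naive was 0.04 (adjusted p = 0.992), turning to -0.25 with the 75th percentile.

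Gpx1, the abundant cytosolic glutathione peroxidase, was read at 7.63 and 8.22 in naive pools, 8.10 and 8.33 in sham pools, 8.56 and 8.39 in surviving pools and 9.17 and 8.84 in dying pools. The order was naive and sham, which overlapped, then surviving, then dying, and the second probe, designed to the same transcript, had the same order with 9.23 and 9.02 in dying neurons. Dying minus sham was 0.80 on the representative (SE 0.44, adjusted p = 0.169, relative difference 1.26) and 1.04 on the second probe (SE 0.44, adjusted p = 0.0878, relative difference 1.50), neither of them called. Both probes were called in 5 of the alternative settings each, among them the 75th percentile (representative 1.52, adjusted p = 0.0117) and quantile normalization (1.86, adjusted p = 0.00932); over all settings the adjusted p of the representative ranged from 0.00573 to 0.968. Surviving minus sham was 0.26 (adjusted p = 0.694, relative difference 0.69) and was called in 3 of 19 settings, among them the series table (1.14, adjusted p = 0.0469); surviving minus dying was -0.53 (SE 0.45, 95% confidence interval -1.56 to 0.50, adjusted p = 0.52). Neither of these was called in the fit reported here.

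Gpx4, the selenoenzyme that reduces lipid hydroperoxides in membranes and whose loss is known to set off ferroptosis, was read at 9.54 and 9.74 in naive pools, 10.18 and 9.87 in sham pools, 10.28 and 10.28 in surviving pools and 9.43 and 8.90 in dying pools. The surviving arrays lay above and the dying arrays below the other 6. Surviving minus dying was 1.12 (SE 0.44, 95% confidence interval 0.11 to 2.13), 2.17-fold higher in surviving neurons, with an unadjusted p of 0.0339 and an adjusted p of 0.198; the difference kept its sign in all 18 settings, from 0.77 to 2.83, and was called in 0 of them. Dying minus sham was -0.87 (adjusted p = 0.132, relative difference -0.40), turning to 0.07 with quantile normalization, and surviving minus sham was 0.25 (adjusted p = 0.7, relative difference 0.68), called in 3 of 18 settings, among them the series table (1.13, adjusted p = 0.0426).

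Gclc, the catalytic subunit of glutamate-cysteine ligase, and Gclm, its modifier subunit, were not well above background on any of the 8 arrays. The Gclc probe ranged from -4.31 to -0.89 and the Gclm probe from -4.47 to -2.30, and no difference is given for either. Each was read by 1 probe, and how well that probe binds its transcript was not tested.

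Hmox1, which releases iron, carbon monoxide and biliverdin from heme, was read at 1.06 and 1.99 in naive pools, 1.81 and 0.72 in sham pools, 2.90 and 1.48 in surviving pools and 2.64 and 2.73 in dying pools. Both dying arrays lay above all 4 uninjured arrays, surviving replicate 1 was above both of them, and surviving replicate 2 fell among the uninjured values. The SD between the 10 spots of the probe was 0.80 in naive replicate 1 and 0.08 in sham replicate 1. Dying minus sham was 1.42 (SE 0.64, 95% confidence interval -0.05 to 2.89, adjusted p = 0.102, relative difference 1.88), not called. It was called in 4 of 18 settings, among them the 75th percentile (2.15, adjusted p = 0.0201) and quantile normalization (1.85, adjusted p = 0.0467), and its adjusted p ranged from 0.0113 to 0.647. Surviving minus sham was 0.92 (adjusted p = 0.328, relative difference 1.35, called in 1 of 18 settings) and surviving minus dying was -0.50 (SE 0.65, adjusted p = 0.693), turning to 0.21 without surviving replicate 2. The genes whose probes followed Hmox1 most closely over the 8 arrays, among 7048 named RefSeq probes with an SD of at least 1 and well above background on at least 4 arrays, were RGD1311710 (Pearson r 0.956), LOC499660 (0.917), Olr786 (0.914), Ptpn7 (0.909) and Map3k10 (0.909). With 8 arrays that share 4 groups and 2 slides, these coefficients are a description only.

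Nqo1, which reduces quinones in the cytosol, was not well above background on any naive or sham array and was so on all 4 injured arrays. It was read at 0.08 and 0.24 in surviving pools and -0.57 and -0.84 in dying pools, with -0.50 and -1.68 in sham and -2.85 and -0.83 in naive. The dimmest signal well above background was -0.30 and -0.15 on the sham arrays and -0.77 and -0.81 on the naive arrays. On the injured arrays it lay between -2.30 and -1.35. The change of mark therefore does not by itself show a rise, and sham replicate 1 lay above both dying arrays. Surviving lay above dying, by 0.87 (SE 0.72, 95% confidence interval -0.79 to 2.53, adjusted p = 0.516). Nqo1 stood at least 1.31-fold above sham in surviving neurons (adjusted p = 0.238). The lower bound sets the mean of the surviving arrays against the dimmest signal still well above background on each sham array, and it was not called, though it was in 2 of 17 settings; for dying neurons no bound above 1 could be given (adjusted p = 0.671).

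Txnrd1, a selenoenzyme, was read by its representative at 2.40 and 2.03 in naive pools, 3.80 and 3.82 in sham pools, 2.53 and 2.36 in surviving pools and 2.68 and 2.72 in dying pools. The sham arrays stood above the other 6, which ran from 2.03 to 2.72. Sham minus naive was 1.59 (SE 0.40, unadjusted p = 0.00396, adjusted p = 0.689), surviving minus sham was -1.37 (SE 0.41, adjusted p = 0.0547, relative difference -0.94) and dying minus sham was -1.11 (SE 0.42, adjusted p = 0.06, relative difference -0.65). Surviving minus dying was -0.26 (SE 0.42, adjusted p = 0.757), and 0.18 on the mean of the 4 probes. None of these was called in the fit reported here; surviving minus sham was called in 3 of 19 settings, with an adjusted p down to 0.00525 with array weights, and dying minus sham in 2 of 19.

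The other Txnrd1 probes went different ways. Probe A_44_P134070, designed to the same RefSeq transcript, was read at 0.84 and 1.85 in naive pools, 1.76 and 2.01 in sham pools, 0.97 and -0.02 in surviving pools and -2.68 and -1.01 in dying pools, and it was not well above background on dying replicate 1. It fell by 3.73 from sham to dying neurons (SE 0.68, 95% confidence interval -5.29 to -2.17, adjusted p = 0.00504), lower in 2 of 2 pools, with a relative difference of -3.27. The bound for the dim signal was 8.4-fold lower. The fall was called in 16 of 17 settings, with adjusted p from 0.00266 to 0.5, the exception being the background correction by normexp. Without dying replicate 1 the difference was -2.90, a smaller fall than the bound. Surviving minus dying on this probe was 2.32 (SE 0.68, unadjusted p = 0.00965, adjusted p = 0.134), and the probe entered this test through surviving pools alone. The bound for the dim signal was 3.16-fold higher in surviving pools. Without dying replicate 1 the difference was 1.49, smaller than the bound. Probe A_44_P427702, designed to an expressed sequence tag, went the other way, with 1.95 and 2.25 in surviving neurons and 5.33 and 3.38 in dying neurons. Surviving minus dying was -2.25 there (SE 0.70, unadjusted p = 0.0125, adjusted p = 0.142) and -3.23 without dying replicate 2. Dying minus sham was 1.35 (adjusted p = 0.139, relative difference 1.82). Probe A_44_P456738 was well above background on surviving replicate 1 only. A single direction for Txnrd1 cannot be read from these probes, and which transcripts each one binds was not tested.

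**Figure D2:**
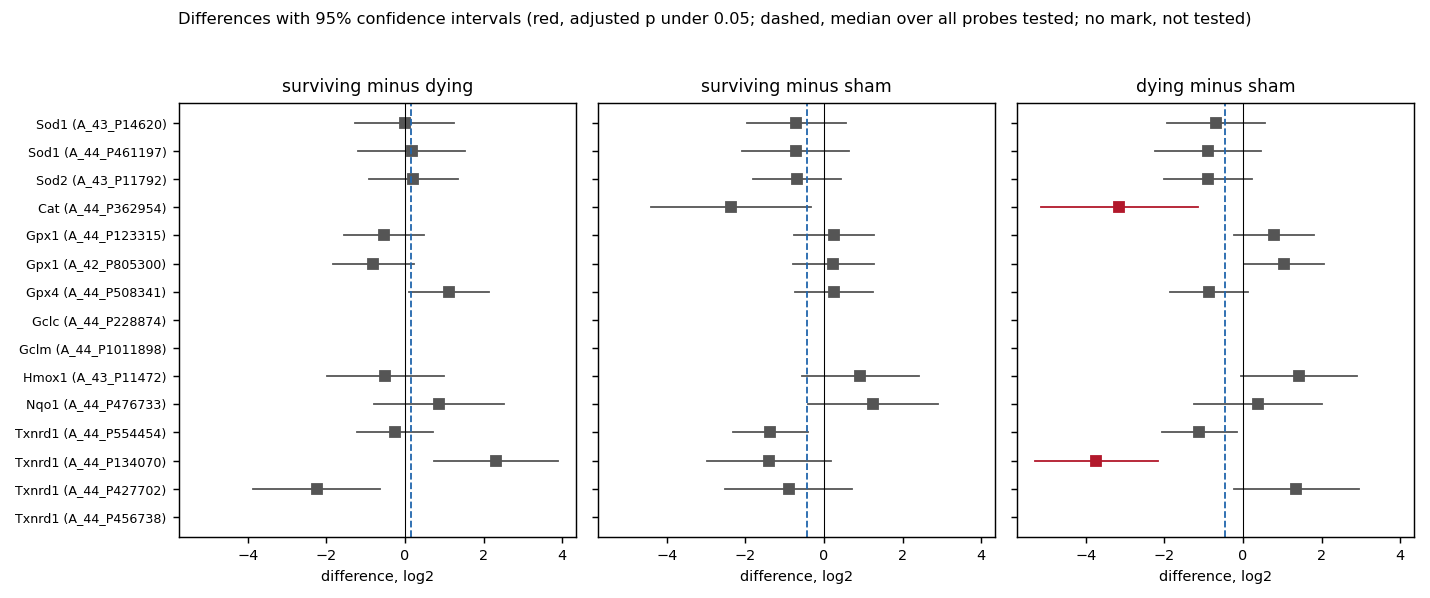
Differences in log2 signal (horizontal axes) with their 95% confidence intervals for the probes of the 10 antioxidant genes in surviving minus dying, surviving minus sham and dying minus sham, with an adjusted p under 0.05 in red, the median over all probes tested as a dashed line and no mark where a probe was not tested. The 2 red marks are Cat (-3.15) and Txnrd1 probe A_44_P134070 (-3.73) in dying minus sham; the sign of Sod1, Sod2 and Gpx4 in dying minus sham turned with at least 1 other scaling.

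Around the 10 members, 6 lists of genes of the same pathways were read, with 77 genes of which 72 had a probe by name. In surviving minus dying 63 were tested and limma called 0, while 20 had an unadjusted p under 0.05, where 21.5% of all probes did. Calls were made only in the fit without dying replicate 2, which leaves 1 dying pool. In surviving minus sham 61 were tested and 9 called, 2 higher and 7 lower, where 18.9% of all probes were called. In dying minus sham 61 were tested and 30 called, 5 higher and 25 lower, where 44.1% of all probes were called. The balance depends on scaling: surviving minus sham had 4 higher and 3 lower with the 75th percentile, 4 and 3 in the series table and 5 and 2 with the median of probes above background, and dying minus sham 8 and 15, 8 and 13, and 11 and 11. It also depends on the filter, since a gene that misses it in sham or in the injured group enters through the other group alone. With the filter on all arrays of both groups the counts are 0 higher and 7 lower in surviving minus sham and 2 and 21 in dying minus sham. In sham minus naive 56 were tested and limma called 0, with 3 at an unadjusted p under 0.05, where 4.82% of all probes had one. Every call against sham kept its sign in all settings that gave a value, but the counts moved: without any 1 of the 4 arrays compared, 1 gene was called in surviving minus sham. In dying minus sham 17 were called without dying replicate 1, 18 without sham replicate 2 and 7 without sham replicate 1. The median over the 72 genes with a probe, including those not tested, was 0.36 in surviving minus dying, beside 0.14 over all probes tested. In surviving minus sham it was -0.56 and in dying minus sham -0.99, or -0.14 and -0.53 relative to all probes. The median of surviving minus dying fell to 0.20 without surviving replicate 1, to 0.09 without dying replicate 2 and to 0.01 with the median of RefSeq probes, and the relative median of surviving minus sham was -0.46 without surviving replicate 1 and 0.17 without the filter.

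Glutathione synthesis and recycling was called lower in 1 of 12 genes tested in surviving neurons and in 6 of 10 in dying neurons, and higher in 0, where 18.9% and 44.1% of all probes were called; these shares are the background for the lists that follow as well. Idh1, the cytosolic isocitrate dehydrogenase that yields NADPH, fell by 1.98 in surviving neurons (adjusted p = 0.0226, relative difference -1.56) and by 2.57 in dying neurons (adjusted p = 0.004, relative difference -2.11), called in 10 and 17 of 18 settings. Slc1a1, the neuronal glutamate transporter that also takes up cysteine, fell by 3.02 in dying neurons (adjusted p = 0.00448, relative difference -2.56, called in 17 of 18 settings), against -1.58 in surviving neurons (adjusted p = 0.0708, relative difference -1.16). Surviving minus dying was 1.44 for Slc1a1 (adjusted p = 0.181) and 1.15 for the glutathione transferase Gsta4 (adjusted p = 0.182), and Gsr, glutathione reductase, was at least 2.58-fold higher (adjusted p = 0.213). Slc7a11, the cystine carrier, named after its values were seen, was not well above background on any array, as was the case for Gclc and Gclm.

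Among the other peroxidases and dismutases, 1 of 9 genes tested was called higher and 1 lower in surviving neurons, and 1 higher and 3 lower in dying neurons. Prdx3, the mitochondrial peroxiredoxin, fell by 1.73 in surviving (adjusted p = 0.0434, relative difference -1.30, called in 5 of 18 settings) and by 2.53 in dying neurons (adjusted p = 0.00579, relative difference -2.07, called in 16 of 18), and Prdx4, that of the endoplasmic reticulum, fell by 2.68 in dying neurons (adjusted p = 0.00525, relative difference -2.22, called in 16 of 18). The remaining call lower in dying neurons, named after its value was seen, was Prdx2, which rests on 1 dying array and was called in 4 of 14 settings. Gpx3, the secreted glutathione peroxidase, was not well above background in sham and entered both tests through the injured groups alone. It stood at least 1.29-fold above sham in surviving neurons (adjusted p = 0.0457) and at least 1.66-fold above it in dying neurons (adjusted p = 0.0138), called in 6 and 12 of 17 settings. Between the injured groups, surviving minus dying, the difference was 1.35 for Prdx4 (adjusted p = 0.181), 1.27 for Prdx2 (adjusted p = 0.27, with its spot on dying replicate 2 left out as non-uniform) and 0.80 for Prdx3 (adjusted p = 0.369).

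The thioredoxin and glutaredoxin system had 1 of 10 genes called higher and 2 lower in surviving neurons, and 1 higher and 5 lower in dying neurons. Txnip, which binds and inhibits thioredoxin, was read at 1.06 and 2.36 in naive pools, 1.77 and 2.0 in sham pools, -4.34 and -3.65 in surviving pools and -3.22 and -1.37 in dying pools. It was not well above background in surviving neurons, at least 14.4-fold lower there than in sham (adjusted p = 0.00378). In dying neurons, where replicate 1 was not well above background, it was at least 9.49-fold lower than in sham (adjusted p = 0.00413). Each was called in 16 of 17 settings, and Txnip entered both tests through sham alone. Srxn1, sulfiredoxin, restores overoxidized peroxiredoxins and is a known Nrf2 target. It was the gene called higher, at least 4.46-fold in surviving (adjusted p = 0.0167) and at least 4.59-fold in dying neurons (adjusted p = 0.00614). These calls were made in 12 and 15 of 17 settings. Srxn1 was not well above background in sham, at -0.20 and -0.55, and entered both tests through the injured groups alone. It was read higher in naive pools, at 1.08 and 0.35, against 2.15 and 1.82 in surviving and 1.90 and 2.15 in dying pools. Txnrd3, a relative of Txnrd1, was not well above background in dying neurons. It was at least 5.49-fold lower there than in sham (adjusted p = 0.0019) and at least 1.37-fold lower than in surviving neurons (adjusted p = 0.116). In both of these comparisons it entered the test through the other group alone. It was also called lower in surviving neurons than in sham, there in 8 of 18 settings. The other calls lower in dying neurons, named after their values were seen, were Glrx, Glrx2 and Msra. In surviving minus dying, uncalled differences were 1.78 for glutaredoxin, Glrx (adjusted p = 0.125) and 2.04 for the methionine sulfoxide reductase Msra (adjusted p = 0.146).

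Of the genes for Nrf2 regulation, heme and iron handling, 0 of 16 were called higher and 2 lower in surviving neurons, and 2 higher and 6 lower in dying neurons. Nfe2l2, which encodes Nrf2, fell by 2.83 in surviving neurons (adjusted p = 0.0311, relative difference -2.41, called in 8 of 18 settings) from 3.31 and 2.40 in sham. In dying neurons it was read at -0.13 in replicate 1, not well above background, and at 1.74 in replicate 2, and was called lower (adjusted p = 0.0425), there in 4 of 17 settings. Tfrc, the transferrin receptor, fell by 2.73 in surviving neurons (adjusted p = 0.00967, relative difference -2.30) and by 3.53 in dying neurons (adjusted p = 0.00176, relative difference -3.07), called in 13 and 17 of 18 settings. Bach1, the repressor that competes for the same element, was not well above background in sham and entered the test of dying minus sham through dying neurons alone. It was at least 2.47-fold higher in dying neurons (adjusted p = 0.002), called in 15 of 17 settings. It was read at -1.34 and -1.39 in surviving pools and 0.62 and 1.53 in dying pools, a difference of -2.44 (adjusted p = 0.106). The other call higher in dying neurons, named after its value was seen, was the ferritin light chain gene Ftl1, at 1.56 (adjusted p = 0.0342, relative difference 2.02, called in 10 of 18 settings), while the heavy chain gene Fth1, also named after its value was seen, fell by 1.75 (adjusted p = 0.0151, relative difference -1.29, called in 13 of 18). The other calls lower there, named after their values were seen as well, were Nfe2l1, Sqstm1 and Blvra. Cbr1 and Blvra were not called in surviving minus dying: 1.49 for the carbonyl reductase Cbr1 (adjusted p = 0.165) and 1.59 for biliverdin reductase A, Blvra, the step after heme oxygenase (adjusted p = 0.217).

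Selenoproteins and their synthesis were called lower in 1 of 7 genes in surviving neurons and in 4 of 7 in dying neurons, with 0 higher. Sepp1, the selenium carrier, fell by 1.97 in surviving neurons (adjusted p = 0.0473, relative difference -1.54, called in 5 of 18 settings), or -1.24 without sham replicate 1. It was read at -0.02 and -0.48 in naive pools, 2.15 and 0.69 in sham pools, -0.74 and -0.36 in surviving pools and -0.22 and -0.15 in dying pools, so that sham stood above the other 6 arrays, naive included. Sepw1 and Sep15 fell by 2.38 (adjusted p = 0.00478, relative difference -1.92, called in 16 of 18) and 2.43 (adjusted p = 0.0173, relative difference -1.96, called in 10 of 18) in dying neurons. The other 2 calls in dying neurons, named after their values were seen, were Sepp1 and Sephs2. None of this list was called in surviving minus dying: 1.32 for Sepw1 (adjusted p = 0.148) and 1.61 for Sep15 (adjusted p = 0.202). Sephs2, a selenophosphate synthetase, was not called there either (adjusted p = 0.174); dying replicate 1 was not well above background at -2.15, and without it the difference was 1.07. Sephs1 was at -1.53 in surviving minus sham (adjusted p = 0.0576, relative difference -1.11).

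Of the oxidant sources, 7 were tested in surviving minus sham and 0 were called by limma, with 1 at an unadjusted p under 0.05; of 9 tested in dying neurons 1 was called higher and 1 lower. Cyba, the p22phox subunit of NADPH oxidases, rose by 3.46 in dying neurons (adjusted p = 0.0106, relative difference 3.92, called in 15 of 18 settings), from 3.12 and 4.14 in sham to 7.50 and 6.67, with 4.63 and 4.70 in surviving neurons. Ptgs2, the inducible cyclooxygenase, entered this test through sham alone, with dying replicate 1 not well above background at -1.92 and replicate 2 at 1.84. Dying minus sham was -3.43 (adjusted p = 0.0307, relative difference -2.97), and the bound for the dim signal was 8.87-fold lower. The difference was called in 6 of 17 settings. Without dying replicate 1 it was -1.55, a smaller fall than the bound. Duox1, not well above background in sham, stood at least 3.75-fold above it in surviving neurons (adjusted p = 0.063), and entered this test through surviving neurons alone. It was read at 1.64 and 1.72 in surviving pools and at 1.36 and -1.38 in naive pools. In surviving minus dying the difference was -2.03 for Nox1 (adjusted p = 0.129) and -2.81 for Nos3 (adjusted p = 0.133), and Xdh, not well above background in surviving neurons, was at least 2.54-fold higher in dying neurons (adjusted p = 0.137).

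**Figure D3:**
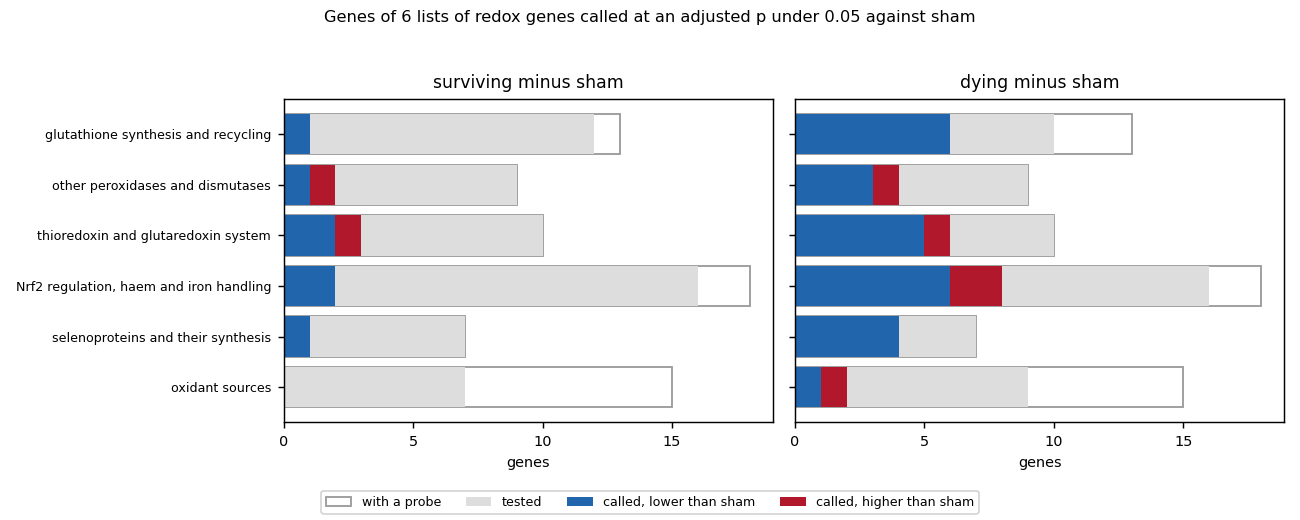
Number of genes (horizontal axes) in 6 lists of redox genes that had a probe, were tested and were called at an adjusted p under 0.05 in surviving minus sham and dying minus sham, with lower in blue and higher in red. Calls number 9 and 30, against 18.9% and 44.1% of all probes tested in the same comparisons.

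Markers of other cell types moved with the groups. Pyramidal neuron markers were present, with 8 of 8 genes well above background on every array except dying replicate 1 (7 of 8, without Grik4) and Nrgn as the brightest. Their summed signal over the array median was 6303 and 8853 in naive pools, 11779 and 10084 in sham pools, 6517 and 6247 in surviving pools and 3229 and 3359 in dying pools. Against sham, Snap25 was called lower in surviving neurons and Snap25, Nrgn and Tubb3 in dying neurons. The summed signal of 12 microglia and macrophage genes was 265 and 490 in naive pools, 595 and 464 in sham pools, 777 and 834 in surviving pools and 3576 and 1710 in dying pools, with Fcgr3 the brightest, 9 of 12 genes well above background on each uninjured array, and 11 and 12 in surviving pools and 10 and 10 in dying pools. Of the defining markers, Ptprc was well above background on surviving replicate 2 only, and Cx3cr1 and Itgam were not so on any uninjured array. In dying minus sham 7 of 10 genes of this list were called higher, in surviving minus sham 1 of 11 (Lgals3), and in surviving minus dying limma called 0 of 11, with 6 at an unadjusted p under 0.05. Hmox1, Gpx1 and Cyba, whose group means were higher in the dying pools than in the other groups, are also expressed by microglia and macrophages, and the part of such cells in these values was not tested.

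Blood cell markers summed to between 13.4 and 17.8 on the uninjured arrays, to 34.7 and 24.6 in surviving and to 74.5 and 68.6 in dying neurons, with Cd3d the brightest of 7 genes. Of these, Hbb, Alas2, S100a8, S100a9 and Cd3d were called higher in dying minus sham and Mpo in surviving minus sham. These and the other marker genes called are named after their values were seen. Astrocyte markers, led by Slc1a3, summed to between 854 and 1490 on uninjured arrays, to 591 and 604 in surviving and to 1040 and 523 in dying neurons, with Gja1 called lower against sham in surviving and Gja1, Slc1a2 and Glul in dying neurons, of 6 tested. Endothelial markers, led by Slc2a1, summed to between 103 and 172 on uninjured arrays, to 136 and 107 in surviving and to 397 and 237 in dying neurons, with Flt1 called higher in surviving and Flt1 and Vwf in dying neurons, of 6 tested. Interneuron markers, led by Pvalb in the mean over the arrays, summed to between 401 and 479 on uninjured arrays. They summed to 183 and 171 in surviving and to 732 and 178 in dying neurons. Pvalb was read at 5.85 on dying replicate 1, so most of the sum of 732 there came from other genes of the list. Gad1 was called lower in surviving and Gad1 and Pvalb in dying neurons, of 7 tested. In pools of captured cells, fewer cells of a type and less RNA per cell cannot be told apart.

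**Figure D4:**
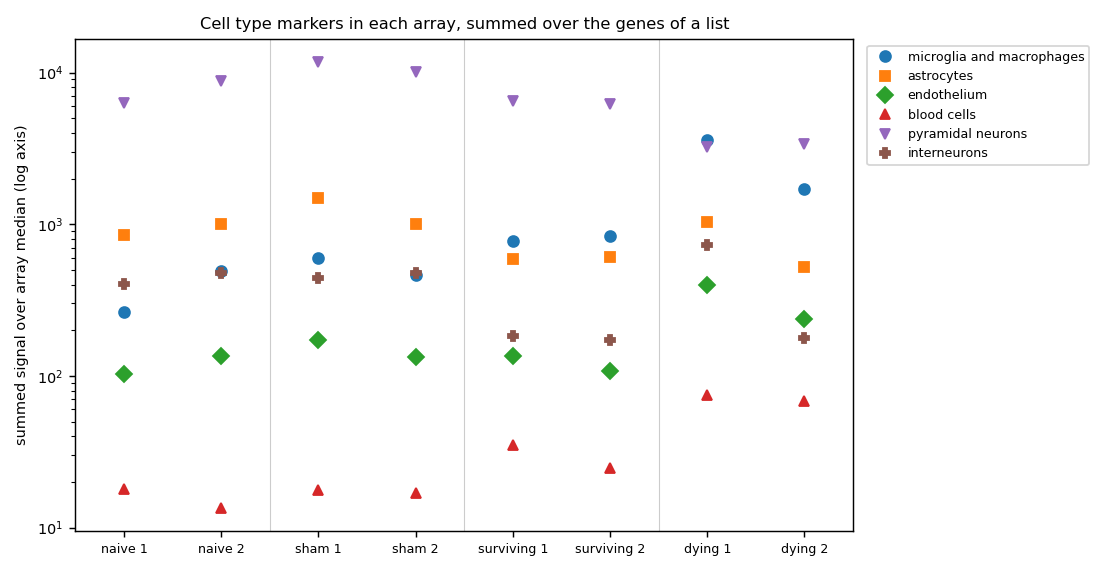
Signal over the array median summed over the genes of each cell type list (vertical axis, log scale) in each of the 8 arrays, with 1 symbol for each list. Microglia and macrophage genes sum to 3576 and 1710 in the dying arrays and to 265 to 834 in the other 6, and pyramidal neuron genes to 3229 and 3359 against 6247 to 11779.

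Differences are limma tests on 2 arrays a group (1 array in a group where a non-uniform spot was left out: dying for Prdx2, Prdx5 and Lgals3, surviving for Dio2), with the spread shared over 4 groups and p-values adjusted by Benjamini-Hochberg over all probes tested. With 2 pools a group only large differences could pass, and a difference that did not pass is not shown to be absent.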

How the data were processed

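Each array measured RNA of 1 pool of captured neurons, amplified in 2 rounds and hybridized in 1 colour. The labels name 2 amplification kits as alternatives and the methods 1 of them, and which kit served which array is not given in the sources used here. The deposited array files hold processed intensities that the authors made with Agilent Feature Extraction 9.1.3.1, with background subtracted and detrended within the array but not normalized between arrays. The same files hold, per the file headers, a 0 or 1 as the mark of a non-uniform spot, of a saturated spot and of a signal well above background. The deposited series table holds signal values that the authors derived from these by dividing each array by 1 constant and setting a floor; it was used as an alternative.

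Non-uniform spots were left out, the remaining spots of a probe averaged, each array divided by its median, values floored at 0.01 and put on the log2 scale. A single fit over 4 groups was made with limma 3.58.1 in R 4.3.3, and p-values were adjusted by Benjamini-Hochberg with a threshold of 0.05. Probes entered a comparison when 1 of its groups had both arrays well above background. Where an array of the lower group did not reach this, a bound is given for the fold. The representative of a gene is its brightest RefSeq probe. Within each of the 6 pathway lists, the 3 genes with the smallest p in surviving minus dying and the 2 with the smallest p in each comparison with sham were named, and genes outside this rule are marked. The members and lists were chosen with earlier results of these data known. A further list of markers, for oligodendrocytes, is not reported here.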

Additional observations from a re-analysis of the deposited data

How the results depend on the processing

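Values in the alternatives are given in the order of the report. In surviving minus dying, the count of probes called was 0, and 2 with the series table; without 1 array it ran from 0 to 5994 and for member probes from 0 to 2. The member median was 0.47 with normexp and -0.30 to 0.29 without 1 array. The sign turned for Sod1 with the 75th percentile (0.0439), normexp (1.65), the series table (0.0686), normexp without extreme backgrounds (0.49) and the mean over probes (0.0799), and it ran from -0.69 to 0.66 without 1 array; for Sod2 with quantile normalization (-0.00449) and the RefSeq median (-0.14), and from -0.20 to 0.62 without 1 array. Hmox1 was 0.38 with normexp and -1.20 to 0.21 without 1 array, Gpx1 1.28 with normexp and 0.13 without extreme backgrounds, and Txnrd1 0.57 with normexp and 0.18 as the mean over probes. In surviving minus sham, probes called were 5074, and 0 with normexp, 3109 with the filter on all arrays, 12161 with the 4 arrays compared, 13274 with array weights, 2560 with normexp without extreme backgrounds and 253 to 513 without 1 array. Member probes called were 0, and 3 with the series table, 1 with the filter, 2 with 4 arrays, 3 with weights, 2 with normexp without extreme backgrounds, 5 with the median of probes above background and 0 to 1 without 1 array. Sod1 turned to 0.0769, 0.45, 0.17, 0.45 and 0.27 with the 75th percentile, normexp, the series table, normexp without extreme backgrounds and the median of probes above background; Sod2 turned to 0.0974, 0.47, 0.19, 0.47 and 0.29 with the same, and to 0.33 with quantile normalization. In dying minus sham, probes called were 11289, and 0 with normexp, 7156 with the filter, 7117 with normexp without extreme backgrounds and 3048 to 13426 without 1 array. Member probes called were 2, and 5 with the 75th percentile, 6 with quantile normalization, 0 with normexp, 5 with the series table, 1 with the filter, 1 with weights, 4 with normexp without extreme backgrounds, 5 with the median of probes above background and 1 to 3 without 1 array. Sod1 turned to 0.0329, 0.11 and 0.31 with the 75th percentile, the series table and the median of probes above background; with quantile normalization and that median Gpx4 turned to 0.0735 and 0.14 and Sod2 to 0.33 and 0.11; Nqo1 ran from -0.21 to 0.97 without 1 array. In sham minus naive, probes called were 0, and 1 with quantile normalization, 118 with 4 arrays and 1 with weights. Gpx1 turned to -0.000134, -0.18, -0.0379, -0.17 and -0.13 with the 75th percentile, quantile normalization, the series table, normexp without extreme backgrounds and the median of probes above background, and ran from -0.00621 to 0.58 without 1 array; Cat turned to -0.25, -0.0217, -0.29, -0.11 and -0.39 with the 75th percentile, the RefSeq median, the series table, normexp without extreme backgrounds and the median of probes above background, and ran from -0.23 to 0.30. With quantile normalization, normexp without extreme backgrounds and the median of probes above background, Gpx4 turned to -0.0672, -0.0754 and -0.0359, Sod1 to -0.0558, -0.12 and -0.0731 and Sod2 to -0.0484, -0.0565 and -0.0151; Hmox1 ran from -0.80 to 0.29 without 1 array. The replicate number used as a block gave 0, 3488, 10397 and 0 probes called in the 4 comparisons and 0, 0, 2 and 0 member probes; the correlation of replicate differences was -0.194 for surviving with dying and between -0.0607 and 0.0715 for the other pairings. Crossed pairing of surviving with dying replicates called 0 probes and 0 members. Chosen after seeing the data were the median of probes above background, the crossed pairing, and normexp without extreme backgrounds, since 1 probe on naive replicate 1 and 4 on dying replicate 1 with a local background over 10 times the median distorted the planned normexp. Of 618 alternative values of member probes, 58 were reversed. With 2 pools a group, spread is poorly known, and injury and slide cannot be told apart against sham.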
